A study of Glycine max with 20 samples.

Results

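The genes described here are the transcripts that differed between 2 near-isogenic soybean lines at every time sampled although they lie on neither chromosome 13 nor chromosome 6. There were 30 of them among the 66210 gene models in the count table. A member had a mean level of at least 1 CPM (read counts scaled to a fixed total of reads in gene models) over the 10 libraries of a line, and its group mean, with 0.1 CPM added, differed between the lines by at least 1.5-fold in the same direction at each of 5 times. Of the 58433 models outside chromosomes 13 and 6, 30326 reached 1 CPM in a line, and the 30 members were 0.0989% of these. The line difference itself chose the members, so their levels and ratios are given as a description, and nothing is read from a test of that difference.

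The study sequenced leaf mRNA of Glycine max from a line labelled rag2, susceptible to aphids, and a line labelled Rag2, resistant to them. Leaves were taken without aphids (0 h) and 4, 8, 24 and 48 h after infestation, with 2 biological replicates for each line and time, 20 libraries in all. The count table names the lines W and BC, and nothing in it or in the labels pairs these names with rag2 and Rag2, so every direction below is BC relative to W and none is relative to resistance. The labels give neither the parents nor the number of backcrosses of the lines, no plant age, and no uninfested leaves after 0 h, so infestation and the time of sampling cannot be told apart.

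Near-isogenic lines are bred by crossing a donor of a trait repeatedly to a recurrent parent. The selected locus and linked DNA around it stay of donor type, and unlinked donor segments can persist elsewhere. Rag2 is a soybean locus for resistance to the soybean aphid, an insect that feeds on phloem sap. Soybean is an ancient polyploid, and many of its genes have a closely similar copy on another chromosome. The identifiers of this table were not paired with gene names, products or sequences in the sources used here, so no function, coordinate or sequence is given, and genes are placed only by the chromosome and the order carried in their names. For the same reason the leaf identity of the samples was not checked against marker genes. A CPM value is not divided by gene length, so levels are compared between libraries of a gene and not between genes.

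Libraries held 7558768 to 38227436 reads in gene models, so that 1 read was worth 0.0262 to 0.132 CPM. Replicate 2 of the BC 0 h group stood apart. It was the smallest library, its mean correlation of log2 levels with the other 19 libraries was the lowest at 0.881, and 7.46% of its reads fell outside gene models. The next lowest mean correlation, 0.894, belonged to replicate 2 of BC at 8 h, and the other 18 libraries lay between 0.912 and 0.951. How many members rest on these libraries is given below.

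Of the 30 members, 21 were higher in BC and 9 were lower. Of all 30326 expressed models outside chromosomes 13 and 6, 22282 were on average higher in BC and 8044 lower. The split of the members is therefore not read as a trait of theirs. The members were scattered. Chromosome 9 held 5, chromosomes 11 and 19 held 4 each, chromosome 2 held 3, and chromosomes 7, 14, 18 and 20 held 2 each. Chromosomes 1, 5, 8, 16 and 17 and an unplaced scaffold each held 1, and chromosomes 3, 4, 10, 12 and 15 held 0. The mean over the 5 times of the log2 ratio of BC to W ranged in size from 0.82 to 5.37 with a median of 1.54, where the median over all 30326 expressed models was 0.148. The ratio passed 2-fold on average in 27 members, 18 higher and 9 lower in BC, and 4-fold in 8 members, 6 higher and 2 lower. Within a member the log2 ratio varied over the times by 0.46 to 4.10, with a median of 1.33. The plot of log2 ratios shows this spread for every member.

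**Figure D1:**
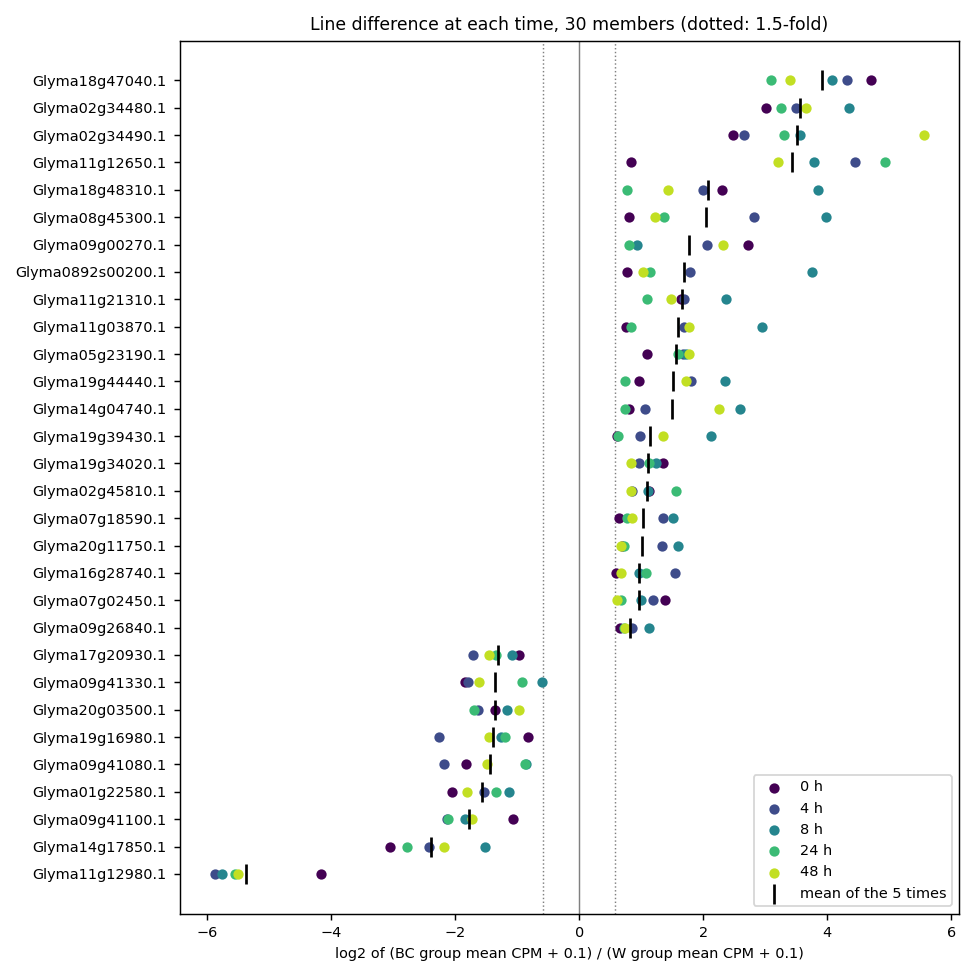
Log2 ratio of the BC to the W group mean (each plus 0.1 CPM) at each of the 5 times for the 30 members, ordered by their mean (black bar). Points are single times, each from 2 libraries per line, and dotted lines mark 1.5-fold. Mean log2 ratios run from 3.92 for Glyma18g47040.1 to -5.37 for Glyma11g12980.1, and within a member the times differ least in Glyma09g26840.1 (0.46) and most in Glyma11g12650.1 (4.10).

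In 6 members all 10 libraries of one line lay above all 10 of the other, 3 of them higher in BC and 3 lower. Among all expressed models outside chromosomes 13 and 6 this was so for 7, or 0.0231%. The rule used the same libraries, so the count is a description. The gap between the lowest library of the higher line and the highest of the lower line was smallest in Glyma05g23190.1, where the ratio of these libraries was 1.21, and widest in Glyma11g12980.1, where it was 8.13. These 6 were also the 6 members that still met the rule whichever of the 20 libraries was left out.

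The mean log2 ratio farthest from 0, computed with 0.1 CPM added, belonged to Glyma11g12980.1 on chromosome 11, which was close to absent from BC. In W its replicates 1 and 2 were at 5.18 and 7.69 CPM at 0 h, 6.45 and 5.04 CPM at 4 h, 5.72 and 4.88 CPM at 8 h, 6.31 and 6.83 CPM at 24 h, and 4.3 and 4.54 CPM at 48 h. In BC they were at 0 and 0.529 CPM at 0 h, 0.0336 and 0.0523 CPM at 24 h, and at 0 CPM in all 6 libraries of 4, 8 and 48 h. No BC library came near the lowest W library. Over the lines there were 1184 reads in W and 7 in BC, a ratio of reads per total of 142 with an exact 95% interval of 68.7 to 354 that covers counting error only. Of the 7 reads, 4 came from replicate 2 of the BC 0 h group.

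Glyma14g17850.1 on chromosome 14 was lower in BC in every library. Its W replicates were at 31.6 and 23.9 CPM at 0 h, 21.7 and 28.4 CPM at 4 h, 16.0 and 16.0 CPM at 8 h, 20.6 and 24.1 CPM at 24 h, and 18.6 and 15 CPM at 48 h. Its BC replicates were at 2.17 and 4.37 CPM at 0 h, 6.03 and 3.21 CPM at 4 h, 3.81 and 7.22 CPM at 8 h, 3.13 and 3.22 CPM at 24 h, and 2.82 and 4.42 CPM at 48 h. The lines were nearest at 8 h, where the group means plus 0.1 CPM differed by 2.87-fold, and farthest apart at 0 h, where they differed by 8.26-fold. The mean of W was 21.6 ± 5.52 CPM and that of BC 4.04 ± 1.55 CPM (SD, n = 10 each).

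Glyma01g22580.1, the single member on chromosome 1, was at 7.32 and 7.46 CPM at 0 h in W, 4.83 and 7.69 CPM at 4 h, 4.06 and 7.47 CPM at 8 h, 4.81 and 6.88 CPM at 24 h, and 5.05 and 5.11 CPM at 48 h. In BC it was at 1.84 and 1.59 CPM at 0 h, 2.91 and 1.31 CPM at 4 h, 1.87 and 3.27 CPM at 8 h, 2.65 and 1.86 CPM at 24 h, and 1.21 and 1.56 CPM at 48 h. The closest libraries of the 2 lines were both from 8 h, replicate 1 of W and replicate 2 of BC. The fold of W over BC, with 0.1 CPM added to each group mean, ran from 2.20 at 8 h to 4.13 at 0 h, and the mean of W was 6.07 ± 1.41 CPM and that of BC 2.01 ± 0.700 CPM (SD, n = 10 each).

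In the other direction, Glyma02g34480.1 and Glyma02g34490.1 on chromosome 2 are consecutive models in the order of the names, and both were higher in BC. Glyma02g34480.1 was in W at 0.0822 and 0.259 CPM at 0 h, 0.232 and 0.346 CPM at 4 h, 0.104 and 0.190 CPM at 8 h, 0.277 and 0.285 CPM at 24 h, and 0.137 and 0.227 CPM at 48 h. In BC it was at 3.36 and 0.794 CPM at 0 h, 4.71 and 3.82 CPM at 4 h, 4.67 and 5.19 CPM at 8 h, 3.46 and 3.64 CPM at 24 h, and 3.30 and 3.64 CPM at 48 h. The 0.794 CPM came from replicate 2 of BC at 0 h, and the next lowest BC library was at 3.30 CPM. Group means were 0.171 CPM in W and 2.08 CPM in BC at 0 h, and 0.147 and 4.93 CPM at 8 h, ratios of 8.04 and 20.4 after 0.1 CPM was added to each mean, which lowers the ratio of such low levels.

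Glyma02g34490.1 was in W at 0.493 and 0.518 CPM at 0 h, 0.386 and 1.35 CPM at 4 h, 0.729 and 0.0633 CPM at 8 h, 0.553 and 0.380 CPM at 24 h, and 0 CPM in both libraries at 48 h. In BC it was at 3.49 and 3.04 CPM at 0 h, 7.28 and 4.72 CPM at 4 h, 5.61 and 5.92 CPM at 8 h, 5.78 and 5.15 CPM at 24 h, and 4.67 and 4.55 CPM at 48 h. Unlike its neighbour, it was not displaced in replicate 2 of the BC 0 h group. Its largest log2 ratio, 5.56 at 48 h, was against a W group with no read, so that it depends on the 0.1 CPM added, and the log2 ratio at the other times was 2.47 to 3.56. Over the lines Glyma02g34480.1 had 45 reads in W and 631 in BC, and Glyma02g34490.1 had 101 and 873. The 5 expressed models on the outer side of each did not differ by 1.5-fold, so the difference spanned these 2 consecutive expressed models and no further by this measure.

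The last of the 6 was Glyma05g23190.1 on chromosome 5. In W it was at 0.658 and 0.259 CPM at 0 h, 0.386 and 0.269 CPM at 4 h, 0.416 and 0.443 CPM at 8 h, 0.332 and 0.427 CPM at 24 h, and 0.478 and 0.114 CPM at 48 h. In BC it was at 1.38 and 0.794 CPM at 0 h, 1.11 and 1.41 CPM at 4 h, 1.51 and 1.81 CPM at 8 h, 1.24 and 1.44 CPM at 24 h, and 1.45 and 1.04 CPM at 48 h. Its closest libraries were both from 0 h. The ratio was steady, with log2 values of 1.09 at 0 h and 1.59 to 1.76 at the other times. The plot of the non-overlapping members shows all 6.

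**Figure D2:**
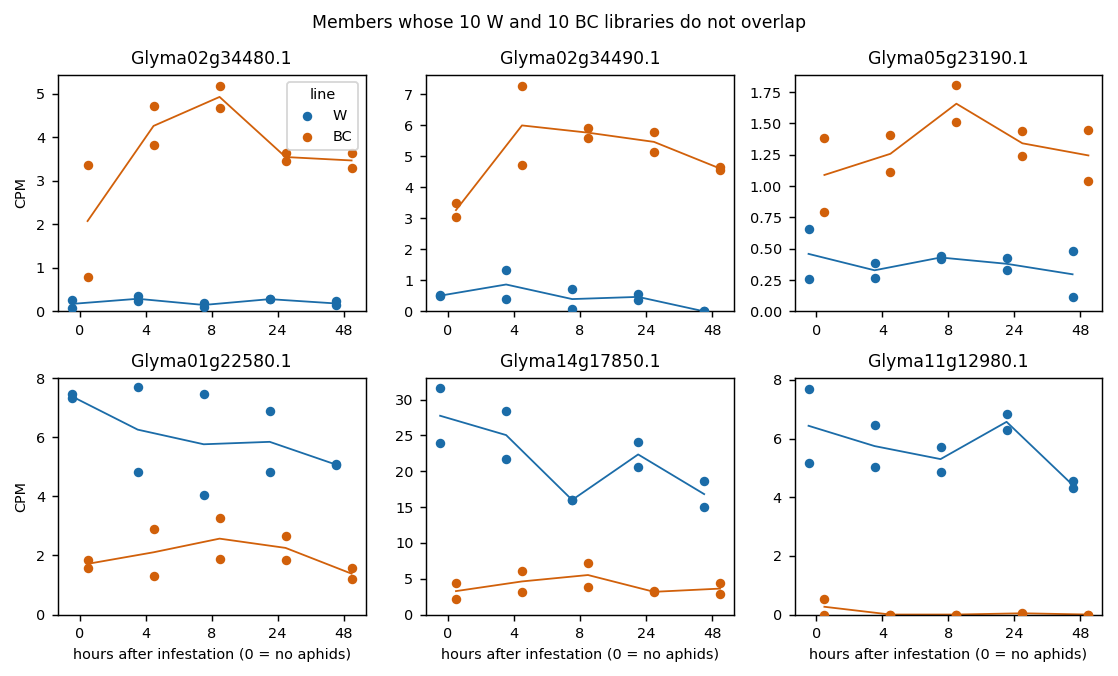
CPM in each library against hours after infestation (equally spaced, 0 h is without aphids) for the 6 members whose lines do not overlap. Points are single libraries, 2 per line and time, and lines join group means. The upper 3 are higher in BC and the lower 3 are higher in W, and in Glyma11g12980.1 the BC libraries lie between 0 and 0.529 CPM.

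The other 6 members lower in BC overlapped between the lines in few libraries, and 3 of the 9 lower members were close to each other on chromosome 9. Glyma09g41100.1 was in W between 32.8 and 58.1 CPM with a median of 44.4 CPM, and in BC at 14.2 and 33.2 CPM at 0 h, 8.80 and 10.2 CPM at 4 h, 14 and 14.2 CPM at 8 h, 10.4 and 11.2 CPM at 24 h, and 9.90 and 12.1 CPM at 48 h. A single library made the overlap, replicate 2 of BC at 0 h with 33.2 CPM, and the other 9 BC libraries lay at or under 14.2 CPM. Glyma09g41080.1, separated from it by 1 model, was in W at 2.63 and 2.30 CPM at 0 h, 1.85 and 2.42 CPM at 4 h, 2.81 and 2.79 CPM at 8 h, 1.11 and 1.95 CPM at 24 h, and 0.887 and 1.59 CPM at 48 h. In BC it was at 0.724 and 0.529 CPM at 0 h, 0.485 and 0.301 CPM at 4 h, 1.58 and 1.41 CPM at 8 h, 0.840 and 0.732 CPM at 24 h, and 0.241 and 0.520 CPM at 48 h. It was highest at 8 h in both lines, and at each time both W libraries were above both BC libraries.

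The model between them, Glyma09g41090.1, had a mean log2 ratio of -0.01, so the pair was interrupted by an expressed model that did not differ by the fold of the rule. Glyma09g41330.1 followed 23 models later. Its W libraries ran from 1.56 to 3.54 CPM with a median of 2.81 CPM, and its BC libraries from 0.605 to 1.65 CPM with a median of 0.893 CPM. Its lines overlapped at 8 h alone, where W was at 1.56 and 3.10 CPM and BC at 1.65 and 1.35 CPM. Of the 22 models between Glyma09g41100.1 and Glyma09g41330.1, 14 were expressed and 0 of these passed 1.5-fold on average, with log2 ratios from -0.43 to 0.52.

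The other 3 members lower in BC were on chromosomes 17, 19 and 20. Glyma19g16980.1 had W libraries from 0.905 to 3.75 CPM with a median of 2.52 CPM, and BC libraries from 0.402 to 1.69 CPM with a median of 0.856 CPM. The W low was replicate 1 at 0 h, and 9 of its 10 W libraries were above every BC library. Glyma20g03500.1 was between 0.461 and 1.99 CPM in W with a median of 1.15 CPM, and between 0 and 0.805 CPM in BC with a median of 0.399 CPM. It had 0 reads in replicate 2 of the BC 0 h and 4 h groups, the smallest of all libraries and one of the smaller ones, so its low values rest on few reads, 69 in all of BC. Glyma17g20930.1 lay between 2.18 and 8.40 CPM in W with a median of 4.54 CPM and between 0.624 and 4.10 CPM in BC with a median of 1.80 CPM. Its highest BC library was replicate 2 at 0 h.

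Among the 21 members higher in BC, Glyma18g47040.1 had the highest mean log2 ratio and next to no reads in W. Its BC replicates were at 1.19 and 3.84 CPM at 0 h, 3.60 and 0.201 CPM at 4 h, 1.58 and 3.33 CPM at 8 h, 0.0336 and 1.46 CPM at 24 h, and 1.77 and 0.130 CPM at 48 h. Of the W libraries, 9 were at 0 CPM and replicate 1 at 8 h held 1 read, 0.104 CPM. The lines overlapped because the BC libraries themselves differed by up to 114 times, from 0.0336 to 3.84 CPM. There were 262 reads in BC against the 1 in W, a ratio of reads per total of 312 with an exact 95% interval of 55.6 to 1.24e+04 for counting error.

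Glyma11g12650.1 on chromosome 11 had the fourth highest mean log2 ratio, 3.44. In W it was at 1.07 and 0.288 CPM at 0 h, 0.116 and 0.154 CPM at 4 h, 0.104 and 0.127 CPM at 8 h, 0.111 and 0.0949 CPM at 24 h, and 1.5 and 0.341 CPM at 48 h. In BC it was at 0.198 and 2.38 CPM at 0 h, 8.32 and 1.71 CPM at 4 h, 1.37 and 4.34 CPM at 8 h, 3.93 and 8.24 CPM at 24 h, and 13 and 5.59 CPM at 48 h. The lines overlapped at 0 h and nowhere else within a time, since replicate 1 of the BC 0 h group lay below both W libraries. The log2 ratio was 0.84 at 0 h and 3.20 to 4.93 at the infested times. It stood 30 models from Glyma11g12980.1, which differed in the opposite direction, and 1 of the 17 expressed models between them passed 1.5-fold.

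The other members higher in BC whose lines overlapped varied widely between replicates, and much of the variation fell on the same libraries. Replicate 2 was above replicate 1 in the BC 0 h group in 18 of the 21 members higher in BC, while it was so in 50.9% of all expressed models. In the BC 8 h group the count was again 18 of 21, beside 63.9% of expressed models, and in the BC 4 h group replicate 1 was the higher in 19 of 21, beside 65.8%. Their median log2 difference of replicate 2 from replicate 1 was 1.63 in the BC 0 h group, -1.28 in the BC 4 h group and 0.84 in the BC 8 h group. At 24 h replicate 2 of BC was the higher in 16 of 21, beside 60.7%, and at 48 h replicate 1 in 13, beside 49.9%. In W, replicate 1 was the higher at 0 h in 17 of 21, beside 54.4%, and replicate 2 at 24 h in 18 of 21, beside 60.5%. The other W groups were nearer to all models, with replicate 2 the higher in 15 of 21 at 4 h, beside 80.1%, in 14 at 8 h, beside 62.9%, and in 8 at 48 h, beside 57.6%. Among the 9 members lower in BC, replicate 2 of BC was the higher in 5 and replicate 1 in 4 at 0 h. At 4 h it was the higher in 2 and the lower in 6, at 8 h the higher in 4 and the lower in 4, at 24 h the higher in 7 and the lower in 2, and at 48 h the higher in 7 and the lower in 1. Glyma11g12980.1 was at 0 in both libraries at 4, 8 and 48 h. The rule used the levels in these same libraries, so the counts of replicate order are a description.

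**Figure D3:**
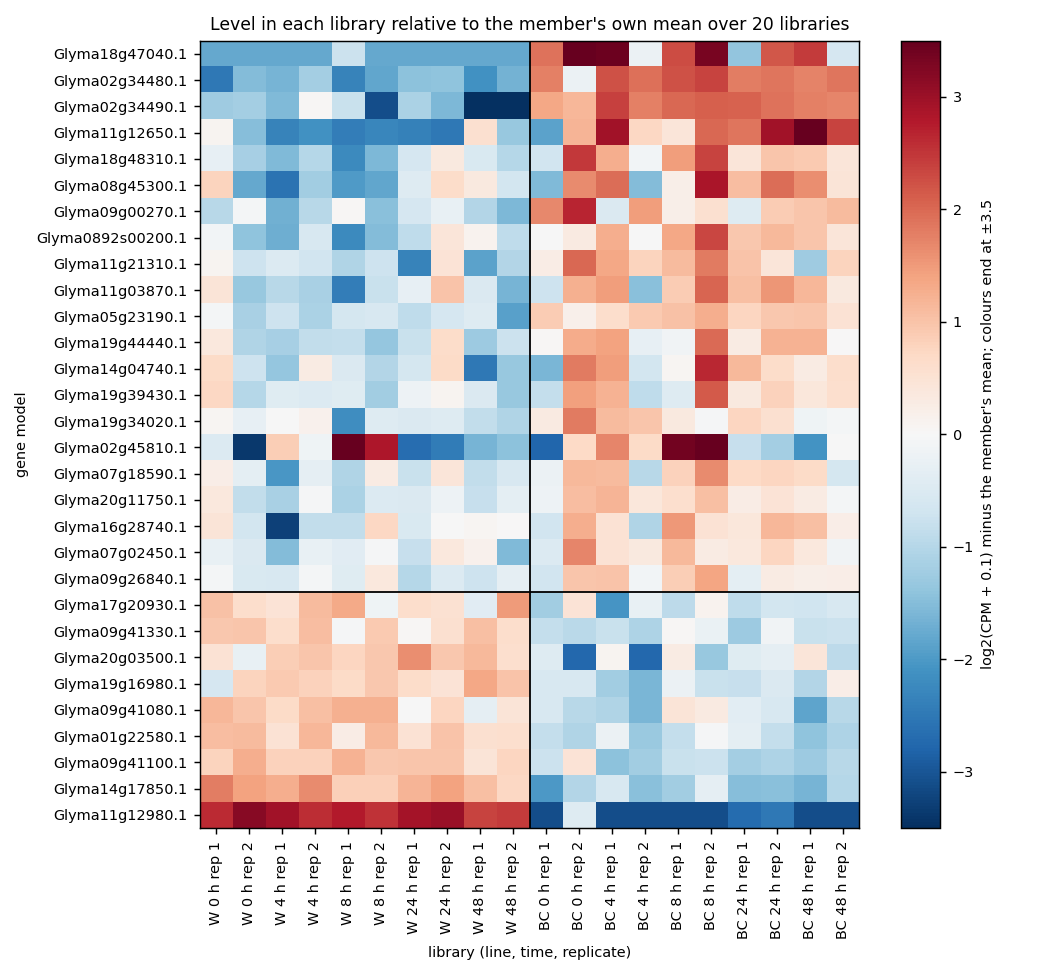
Level of each member (rows) in each of the 20 libraries (columns) as log2(CPM + 0.1) minus the mean of that member over the libraries, red above and blue below it. The vertical line divides the lines and the horizontal line divides the 21 members higher in BC from the 9 lower ones. Replicate 2 of the BC 0 h and 8 h groups and replicate 1 of the BC 4 h group are red in most of the upper rows, next to paler or blue replicates of the same groups.

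The highest BC library was replicate 2 at 8 h in 11 of the 21 members and replicate 2 at 0 h in 6. These libraries were the highest BC library in 31.0% and 18.5% of all expressed models. In W the highest was replicate 2 at 24 h in 7 members, beside 10.3%, and replicate 1 at 0 h in 5, beside 14.9%. The median coefficient of variation over the 10 libraries was 0.54 in W and 0.55 in BC for the members higher in BC. For the members lower in BC it was 0.26 in W and 0.50 in BC, and for all expressed models 0.24 and 0.29. The sets were not matched for level. The median CPM of the higher line was 4.28 for the members and 12.3 for all expressed models, and counting error weighs more at low levels. The part of the deviating libraries in these ratios was measured by leaving them out.

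At 0 h the ratio of the members higher in BC depended on replicate 2 of the BC 0 h group. With that library alone against the mean of W, their median log2 ratio was 1.67 and 0 of 21 were under 1.5-fold. With replicate 1 alone the median was -0.07, 15 of 21 were under 1.5-fold and 12 were below the W mean. The rule was applied to the mean of both replicates, so a member under 1.5-fold with replicate 1 had to exceed it with replicate 2. This split is therefore a description. The median over all expressed models was -0.23 with either replicate. Without replicate 2 of the BC 0 h group the rule was met by 22 models, of which 15 were members. All 15 members lost were higher in BC, so that 6 of 21 higher members and 9 of 9 lower members still met it, and 7 other models were added. The 6 were Glyma18g47040.1, Glyma02g34480.1, Glyma02g34490.1, Glyma09g00270.1, Glyma0892s00200.1 and Glyma05g23190.1.

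The set also depended on the W 0 h group. Without replicate 1 of that group the rule was met by 103 models, all 30 members among them. Without its replicate 2 the rule was met by 19, of which 17 were members. Of the 13 members lost there, 12 were higher in BC. Leaving out replicate 1 of BC at 0 h gave 54 models, of which 28 were members. Without replicate 2 of the BC 8 h group, 26 members still met the rule and 4 did not, 2 higher and 2 lower in BC.

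Glyma08g45300.1 on chromosome 8 shows this pattern. Its W replicates were at 105 and 17.6 CPM at 0 h, 10.2 and 26.2 CPM at 4 h, 15.5 and 17.2 CPM at 8 h, 45.0 and 96.2 CPM at 24 h, and 77.1 and 39.2 CPM at 48 h. Its BC replicates were at 20.9 and 193 CPM at 0 h, 238 and 21.3 CPM at 4 h, 71.3 and 447 CPM at 8 h, 130 and 236 CPM at 24 h, and 189 and 83.6 CPM at 48 h. The BC replicates lay far apart at 0, 4 and 8 h, and the lines overlapped at 0 and 4 h. The mean of W was 44.9 ± 35.3 CPM and that of BC 163 ± 129 CPM (SD, n = 10 each).

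Glyma18g48310.1 on chromosome 18 had BC replicates at 4.15 and 37.7 CPM at 0 h, 16.3 and 6.23 CPM at 4 h, 18.5 and 34.8 CPM at 8 h, 9.01 and 13.2 CPM at 24 h, and 12.7 and 8.97 CPM at 48 h. Its W libraries lay between 1.35 and 8.5 CPM with a median of 3.30 CPM. At the infested times both BC libraries were above both W libraries, and at 0 h replicate 1 of BC lay within the W range. It no longer met the rule when replicate 2 of BC at 0 h was left out.

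Glyma0892s00200.1, on a scaffold that is not placed on a chromosome, had BC replicates at 5.73 and 7.14 CPM at 0 h, 14 and 5.72 CPM at 4 h, 14.9 and 29.7 CPM at 8 h, 11.3 and 12.9 CPM at 24 h, and 11.5 and 7.80 CPM at 48 h. In W it was at 5.35 and 2.13 CPM at 0 h, 1.70 and 3.85 CPM at 4 h, 1.14 and 1.96 CPM at 8 h, 3.10 and 7.78 CPM at 24 h, and 6.28 and 3.06 CPM at 48 h. At each time both BC libraries were above both W libraries, although the lines overlapped across times. This within-time separation was seen in 12 members, where 20 expressed models outside chromosomes 13 and 6, or 0.066%, showed it at all 5 times. In 7 members it was seen at 4 times, in 6 at 3 times, in 4 at 2 times and in 1 at a single time.

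Glyma09g00270.1 had W libraries from 0.309 to 1.25 CPM with a median of 0.576 CPM, and BC replicates at 4.15 and 8.33 CPM at 0 h, 0.832 and 3.51 CPM at 4 h, 1.44 and 1.86 CPM at 8 h, 0.874 and 2.35 CPM at 24 h, and 2.49 and 2.73 CPM at 48 h. It differed from the members above in that both BC libraries at 0 h were the highest of all. Glyma11g21310.1 was between 1.94 and 14.2 CPM in W with a median of 6.20 CPM and between 4.27 and 41.5 CPM in BC with a median of 19.2 CPM. Glyma11g03870.1 was between 0.416 and 5.36 CPM in W with a median of 1.42 CPM and between 0.904 and 11.2 CPM in BC with a median of 5.88 CPM. The BC low of Glyma11g03870.1 was replicate 2 at 4 h and its BC high was replicate 2 at 8 h.

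Glyma14g04740.1 repeated this, with BC replicates at 0.724 and 8.73 CPM at 0 h, 6.79 and 1.51 CPM at 4 h, 2.52 and 15.5 CPM at 8 h, 5.41 and 3.85 CPM at 24 h, and 2.98 and 3.77 CPM at 48 h, and with W libraries between 0.341 and 3.91 CPM and a median of 1.48 CPM. Glyma19g39430.1, with 0.341 to 1.73 CPM in W around a median of 0.711 CPM, had BC replicates at 0.527 and 2.91 CPM at 0 h, 2.49 and 0.502 CPM at 4 h, and 0.719 and 4.80 CPM at 8 h, and between 1.31 and 1.86 CPM at 24 and 48 h. In both members the order of the replicates at 0, 4 and 8 h was that of Glyma08g45300.1. Glyma19g44440.1 was between 0.190 and 1.04 CPM in W with a median of 0.310 CPM and between 0.502 and 2.82 CPM in BC with a median of 1.21 CPM, again highest in replicate 2 of the BC 8 h group.

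**Figure D4:**
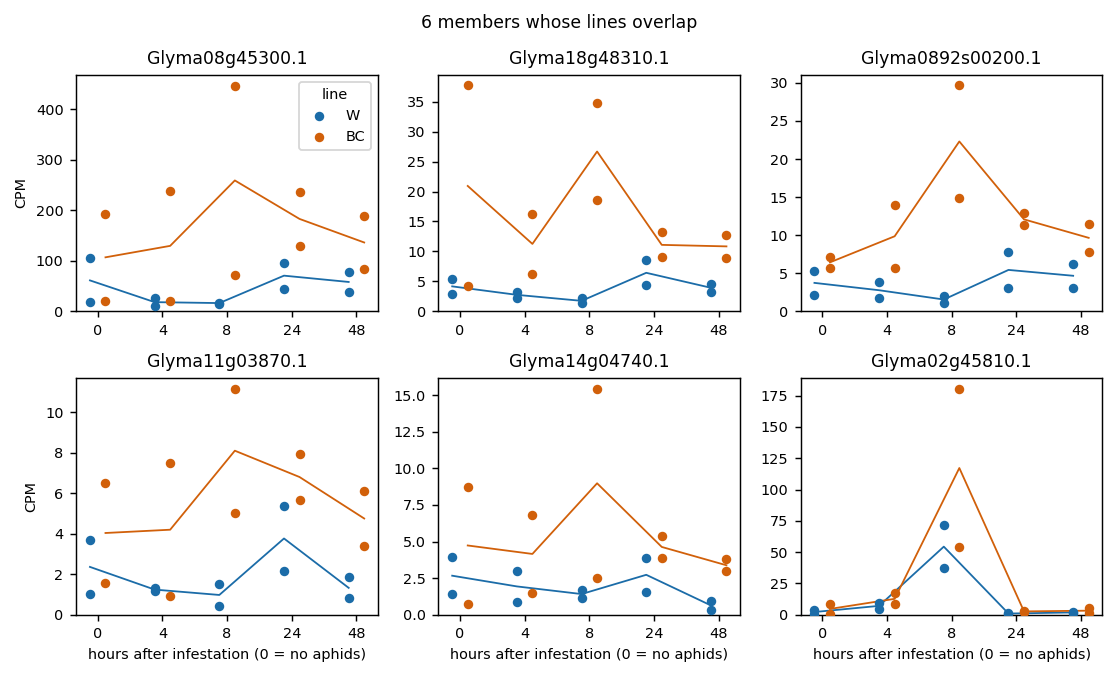
CPM in each library against hours after infestation (equally spaced, 0 h is without aphids) for 6 members higher in BC whose lines overlap. Points are single libraries, 2 per line and time, and lines join group means. In Glyma08g45300.1 the BC replicates are at 20.9 and 193 CPM at 0 h and 71.3 and 447 CPM at 8 h, and Glyma02g45810.1 is highest at 8 h in both lines.

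The remaining members higher in BC had mean log2 ratios between 0.82 and 1.11. Glyma19g34020.1 was between 0.104 and 0.923 CPM in W with a median of 0.570 CPM and between 0.724 and 3.18 CPM in BC with a median of 1.17 CPM, and within each time its lines did not overlap. Glyma07g18590.1 was between 0.425 and 2.80 CPM in W with a median of 1.47 CPM and between 1.00 and 6.66 CPM in BC with a median of 3.43 CPM. Glyma20g11750.1 was between 1.00 and 3.04 CPM in W with a median of 1.63 CPM and between 2.04 and 5.47 CPM in BC with a median of 3.22 CPM. Of these 3, Glyma20g11750.1 had its lines apart at 4 of the 5 times and Glyma07g18590.1 at 2.

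Glyma16g28740.1 was between 0.309 and 6.39 CPM in W with a median of 3.20 CPM and between 1.81 and 11.2 CPM in BC with a median of 5.51 CPM. Glyma07g02450.1 was between 0.227 and 1.14 CPM in W with a median of 0.658 CPM and between 0.593 and 3.04 CPM in BC with a median of 1.13 CPM. Glyma09g26840.1 was between 0.609 and 1.71 CPM in W with a median of 0.919 CPM and between 0.790 and 3.55 CPM in BC with a median of 1.59 CPM. These 3 no longer met the rule when library sizes were scaled by TMM, which centres most transcripts on no change, and neither did Glyma20g11750.1 and Glyma19g39430.1. With that scaling 34 models met the rule, of which 25 were members, and the direction of all 30 held at all 5 times.

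The choice of 1.5-fold divided models of nearly equal ratio. At their weakest time, Glyma16g28740.1 differed by 1.51-fold at 0 h, Glyma09g41330.1 by 1.52-fold at 8 h and Glyma19g39430.1 by 1.52-fold at 0 h. Just outside, and otherwise meeting the rule, were Glyma03g30180.1 at 1.49-fold at 8 h, Glyma03g29620.1 at 1.48-fold at 24 h and Glyma03g31620.1 at 1.48-fold at 48 h. All 3 models just outside were on chromosome 3, which held 0 members.

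In the edgeR quasi-likelihood fit to all 38918 models with enough reads, in which all 30 members were tested, 14 members passed an adjusted p of 0.05 for BC against W averaged over the times, where 0.213% of all models passed. They were 7 higher in BC, beside 0.136% of all models, and 7 lower, beside 0.0771%, and 29 members were under an unadjusted p of 0.05, beside 9.11%. This contrast is the one that chose the members, and nothing is read from these counts. Outside chromosomes 13 and 6, 32 models passed, or 0.0943%. Of these, 18 were not members: 6 were under 1 CPM in both lines, and 12 failed the fold or its direction at some time.

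Change over time was not used to choose the members, so it was tested. In the joint edgeR test of 4, 8, 24 and 48 h against 0 h, averaged over the lines, 1 of the 30 members passed an adjusted p of 0.05, or 3.3%, where 5.33% of all models did. At an unadjusted p of 0.05 it was 6 members, or 20%, beside 19.8% of all models. Both shares of the members were near those of all models. DESeq2 called 4 members and 4870 models. In edgeR without replicate 1 of BC at 0 h, more members and more models passed. When replicate 1 or replicate 2 of W at 8 h was left out singly, more members but fewer models passed.

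The member that passed was Glyma02g45810.1 on chromosome 2, which rose sharply at 8 h. Its W replicates were at 3.62 and 0.403 CPM at 0 h, 9.31 and 4.58 CPM at 4 h, 71.5 and 37.1 CPM at 8 h, 0.719 and 0.854 CPM at 24 h, and 1.57 and 1.82 CPM at 48 h. Its BC replicates were at 0.659 and 8.33 CPM at 0 h, 17.0 and 8.13 CPM at 4 h, 54.0 and 180 CPM at 8 h, 2.86 and 2.17 CPM at 24 h, and 1.13 and 5.07 CPM at 48 h. All 4 libraries of 8 h were above the other 16. Averaged over the lines, the log2 change from 0 h was 4.67 ± 0.78 at 8 h (fitted value ± SE, 4 libraries against 4), and 1.70 ± 0.73 at 4 h, -0.98 ± 0.80 at 24 h, then -0.28 ± 0.82 at 48 h, with an edgeR adjusted p for the joint test of 7.02e-04 and a range over the alternatives of 3.18e-13 to 0.0364. It was the member of the weakest separation between the lines, which were apart at a single time, 24 h.

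Glyma09g41080.1, described above, had the next smallest p of the joint test, with an edgeR adjusted p of 0.0595. Next came Glyma02g34490.1 of the chromosome 2 pair, with an edgeR adjusted p of 0.129, and Glyma09g41100.1, with 0.150. None of these 3 passed. For Glyma02g34490.1 the fitted log2 change from 0 h, averaged over the lines, was -2.93 ± 0.96 (SE) at 48 h. Both W libraries had no read at 48 h. The W mean was 0.506 CPM at 0 h, while the BC mean was 3.27 CPM at 0 h and 4.61 CPM at 48 h. The fall was thus in W alone, where levels were low. For Glyma09g41080.1 the fitted log2 change was 0.54 ± 0.28 at 8 h and -0.87 ± 0.32 at 48 h.

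Whether the change over time differed between the lines was given as a description, since the rule asks for the same direction at all times. By edgeR 0 of 30 members and 0 of 38918 models, 0% of those tested, passed an adjusted p of 0.05. At an unadjusted p of 0.05 it was 3 members, or 10%, beside 8.02% of all models, and DESeq2 and limma voom with library weights each called 0 members (DESeq2 called 145 models). When replicate 1 of BC at 0 h was left out, so that only the library that stood apart was left there, edgeR called 1799 of 40320 models and 3 members, Glyma18g48310.1, Glyma09g41100.1 and Glyma11g12980.1.

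The log2 ratio of the members higher in BC was largest at 8 h in 12 of 21 and smallest at 0 h in 11 of 21. Their median at 8 h was 2.36, against 1.08 at 24 h and 1.44 at 48 h. Replicate 2 of BC at 8 h was the highest BC library in 11 of the 21, beside 31.0% of all expressed models. The matching shares of all expressed models by time are not given here, so no effect of time is read from these counts. The median over all expressed models was itself 0.28 at 8 h and -0.20 at 0 h with library totals, and with TMM scaling it lay between -0.015 and 0.0099 at the 5 times. The members lower in BC had their largest difference at 4 h in 5 of 9 and their smallest at 0 h in 4 and at 8 h in 4.

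Models next to the members were read for the same difference. For each member on a chromosome the 5 nearest expressed models on either side in the order of the names were taken, which gave 270 models that are not members themselves. Of these, 33 differed by 1.5-fold or more on average over the times, or 12.2%. Among all 30296 expressed models outside chromosomes 13 and 6 that are not members, the 270 included, it was 1567, or 5.17%. The median size of the log2 ratio was 0.184 in the 270 neighbours, beside 0.147 in the 30296. The share beyond 1.5-fold was thus larger in the neighbours than in all such models, and this was not tested. Most neighbours still lay within 1.5-fold, as the plot of neighbouring models shows.

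Neighbours that differed were most numerous next to Glyma08g45300.1, Glyma16g28740.1 and Glyma14g04740.1, which were higher in BC. The rest lay next to members of both directions, 3 of them by Glyma19g44440.1 and fewer by any other. Glyma08g45300.1 was flanked by Glyma08g45280.1, Glyma08g45290.1, Glyma08g45310.1 and Glyma08g45320.1 with mean log2 ratios of 1.67, 1.78, 1.85 and 0.65. Glyma16g28740.1 and Glyma14g04740.1 also had 4 of 10 neighbours beyond 1.5-fold, reaching 2.01 in Glyma16g28670.1 and 1.25 in Glyma14g04750.1. None of these 12 neighbours passed the edgeR test of the lines. Glyma18g48320.1, next to Glyma18g48310.1, was the 1 neighbour other than a member that passed (mean log2 ratio 2.06, edgeR adjusted p = 0.00522). This was 1 of the 270 neighbours, beside 12 of the 30296 expressed models that are not members. The calls of single neighbours under the alternatives are not given here.

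**Figure D5:**
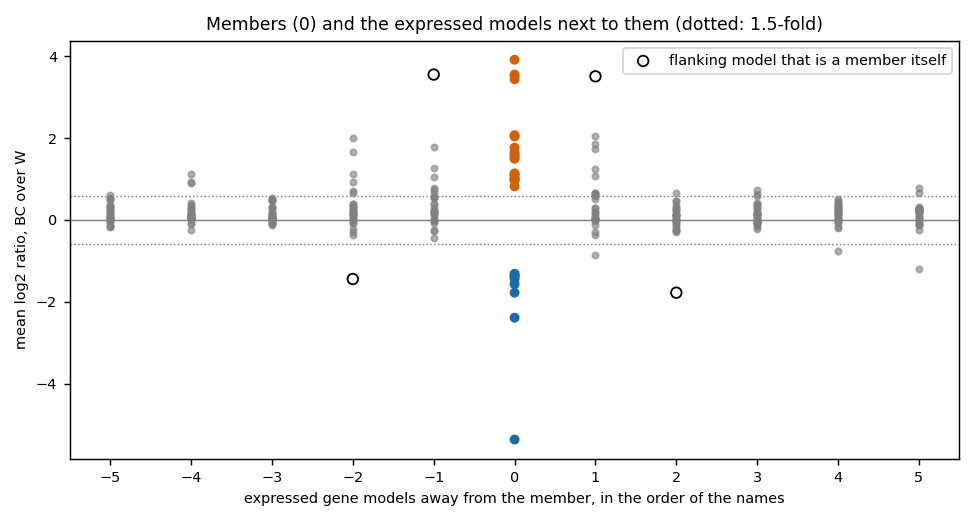
Mean log2 ratio of BC to W over the 5 times for the members (position 0, orange higher and blue lower in BC) and for the 5 expressed gene models on either side of each in the order of their names. Grey points are single models, open circles are neighbours that are members themselves, and dotted lines mark 1.5-fold. Most grey points lie within the dotted lines, with 33 of 270 beyond them.

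By the same rule 27 models on chromosome 13 and 10 on chromosome 6 differed, 1.11% and 0.489% of the expressed models there. The median size of the mean log2 ratio was 1.79 on chromosome 13, 1.70 on chromosome 6 and 1.54 elsewhere. The lines did not overlap in 17 of 27 models on chromosome 13, or 63.0%, and in 5 of 10 on chromosome 6, beside 6 of 30, or 20%, elsewhere. Another such model lay within 5 models in the order of the names for 17 of 27 on chromosome 13 and 2 of 10 on chromosome 6, beside 4 of 30, or 13.3%, elsewhere. Without replicate 2 of the BC 0 h group, 23 of 27 and 7 of 10 still met the rule, beside 15 of 30 elsewhere. All of these models were chosen by the same contrast, so these shares are set side by side without a test.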

How the data were processed

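Whole-number read counts of gene models, not normalized, were deposited by the authors as 1 table with a column for each library. The tools were Cuffdiff 1.3.0, edgeR, HTSeq 0.5.3 and TopHat 1.4.1, per the submitters' processing notes. The sources used here name no genome build, annotation or strand setting, so reads of overlapping or antisense models cannot be told apart. Its row for reads with several alignments holds 0 throughout, which leaves the values of near-identical copies uncertain. Totals and tests left out the 5 rows without a gene. Reads outside gene models were 2.79% to 7.46% of a library and ambiguous reads 1.43% to 1.86%.

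CPM were computed from totals over gene models. The members and gene lists were chosen with earlier results of these data known. Table rows are in no chromosomal order, so neighbours follow the order of the names. None of the names matched the RefSeq table at hand, so lists and markers that need gene names were not used. Named genes were the 12 highest and 12 lowest mean ratios, the 4 highest levels in each direction, the 4 smallest p of change over time, adjacent members and the 3 models on each side of the threshold. This named 26 members, and the other 4 are given so that every member is described.

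Counts were fitted with edgeR 4.0.16 in R 4.3.3 (robust quasi-likelihood, TMM scaling, filterByExpr) as 10 groups of line and time in all 20 libraries, with Benjamini-Hochberg adjustment over 38918 models and a threshold of 0.05. Tests are two-sided. Alternatives were DESeq2 1.42.0, edgeR with DESeq2 size factors, limma 3.58.1 voom with quality weights, no filter on low counts, a replicate block, leaving out each library, and other thresholds and scalings of the rule. Libraries range from 7558768 to 38227436 reads, and p-values measure the spread between the samples that the labels call biological replicates.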

Additional observations from a re-analysis of the deposited data

Results flagged for a closer look

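The 10 libraries of a line were searched for a highest or lowest library far from the rest, which gave 60 sets for the 30 members. Of these, 10 were picked out, or 16.7%, in 9 members. The same search picked out 14.1% of the sets of all expressed models outside chromosomes 13 and 6, a share near that of the members, where normally distributed values would give about 1 in 20. Time after infestation also varies within a set.

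Replicate 2 of the BC 0 h group accounted for 5 of them, and for 11.5% of all expressed models in the search of BC. It was high in Glyma09g00270.1 (8.33 CPM, next 4.15 CPM), Glyma19g34020.1 (3.18 CPM, next 1.87 CPM), Glyma09g41100.1 (33.2 CPM, next 14.2 CPM) and Glyma11g12980.1 (0.529 CPM, next 0.0523 CPM), and low in Glyma02g34480.1 (0.794 CPM, next 3.30 CPM). In Glyma09g41100.1, Glyma11g12980.1 and Glyma02g34480.1 it lay towards the W values, and in the others away from them.

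Replicate 2 of the BC 8 h group, picked out in 4.47% of all expressed models, was high in Glyma08g45300.1 (447 CPM, next 238 CPM), Glyma0892s00200.1 (29.7 CPM, next 14.9 CPM) and Glyma02g45810.1 (180 CPM, next 54.0 CPM). Replicate 1 of the W 8 h group, picked out in 0.445% of all expressed models in the search of W, was high in Glyma02g45810.1 (71.5 CPM, next 37.1 CPM). In Glyma02g45810.1 the next library of either line was also from 8 h. The same W library held the only W read of Glyma18g47040.1, at 0.104 CPM, where the other 9 were at 0.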

How the results depend on the processing

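The number of models that met the rule, 30, was 9 with 2-fold, 14 with 1 CPM added, 14 with a minimum of 5 CPM, 34 with TMM scaling, 4 when every library had to be 1.5-fold from every library of the other line (Glyma02g34480.1, Glyma02g34490.1, Glyma14g17850.1 and Glyma11g12980.1), and 19 to 103 when each library was left out. For BC against W averaged over the times, 14 members of 83 models passed by edgeR, 23 of 272 by DESeq2, 14 of 74 with a replicate block, and 12 to 20 members when each library was left out, the highest without replicate 1 of the BC 0 h group, where 526 models passed. For change over time the counts were 1 of 2073 models by edgeR, 4 of 4870 by DESeq2, 1 of 2144 with a replicate block, and 1 to 6 members when each library was left out, with 6 of 6782 without replicate 1 of the BC 0 h group and 2 without either replicate of the W 8 h group. For a change over time that differed between the lines they were 0 by edgeR, 0 with a replicate block, and 0 to 3, the highest, 3 of 1799 models, without replicate 1 of the BC 0 h group. For single members and BC against W, 699 of the alternative values kept their call, 19 gained it and 32 lost it, and none changed direction. For change over time, 740 kept it and 10 gained it. The replicate numbers were not taken to pair the lines, since the correlation between the lines of the difference of replicate 1 from replicate 2 was -0.04, -0.43, -0.12, -0.51 and 0.40 at 0, 4, 8, 24 and 48 h. The cause of the differences between settings was not tested. With 2 libraries per group and 1 read worth up to 0.132 CPM, differences of transcripts near 1 CPM at a single time were not resolved.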
